A study of Caenorhabditis elegans with 12 samples.

Results

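Neuropeptides are short secreted signalling peptides cut from larger precursors, packed into dense-core vesicles and released from neurons, and in some cases from the intestine or other tissues, to act mostly on G protein-coupled receptors. In Caenorhabditis elegans the precursors fall into insulin-like peptides (ins genes), FMRFamide-like peptides (flp genes) and a mixed class of neuropeptide-like proteins (nlp genes). The neuropeptide-like class includes relatives of peptides of other animals, such as the pigment-dispersing factor peptide of pdf-1, the oxytocin- and vasopressin-like nematocin of ntc-1 and the cholecystokinin-like peptide of nlp-12.

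The genes described here are all genes whose symbol starts with nlp-, apart from the epidermal antimicrobial genes nlp-24 to nlp-34, together with pdf-1, snet-1 and ntc-1, at a mean of 0.5 CPM or more over all 12 libraries. CPM are counts scaled to a common library size. The rule gave 56 genes, 53 of them nlp genes, out of 14508 entries in the tables. It used symbols and an overall level, and no difference between strains, but it was chosen with earlier results of these data known.

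RNA came from whole animals at the L4 larval stage, grown at 20 degrees, in 4 strains with 3 biological replicates each. The double strain, WBM66, carried CA-AAK-2 and CA-CRTC-1 together. WBM55 carried CA-CRTC-1, an altered CRTC-1 (S76A and S179A), the coactivator that works with the transcription factor CREB. WBM60 carried CA-AAK-2, an active AAK-2, which is a catalytic part of AMPK, the energy-sensing kinase that acts on CRTC-1. N2, the wild type, carried neither. The labels name no promoter or cell type for either transgene and do not say whether a strain is 1 line of several. In whole animals, more cells of a type and more RNA per cell cannot be told apart.

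Reads assigned to the listed genes numbered 30891634 to 48994152 per library, recovered from the CPM steps, and 1 read was worth 0.0178 to 0.0285 CPM. In double replicate 3 and CA-CRTC-1 replicate 2 the size of that step rests on few low values, 72 and 54 of them, against 125 to 573 in the other 10 libraries. Reads of aak-2, the kinase gene, were 5.59 ± 0.08 higher on the log2 scale in the double strain than in N2, and 5.35 ± 0.08 higher in the CA-AAK-2 strain than in N2. Reads of crtc-1 were 4.11 ± 0.10 higher in the double strain and 3.18 ± 0.10 higher in the CA-CRTC-1 strain than in N2. The double strain therefore also held more crtc-1 RNA than the CA-CRTC-1 strain, by 0.94 ± 0.10. All 20 pan-neuronal markers were detected in every strain.

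The 56 genes ranged from 0.791 to 81.9 CPM in their mean over all libraries. Set per kilobase of exon, which makes genes comparable, their median level was 8.57 CPM per kb and their range 1.46 to 221 CPM per kb. The highest 5 per kb were nlp-36 (221), nlp-40 (115), nlp-49 (59.0), pdf-1 (40.6) and nlp-20 (35.9). A mean of 5 CPM or more over all libraries was reached by 28 genes, while the other 28 lay below it and 3 lay under 1 CPM. The X chromosome held 18 of the 56 genes (32.1%), against 13.9% of all genes with a gene model.

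As a group the neuropeptide-like genes were most abundant in the double strain. Their summed level was 761 ± 70.1 CPM in the double strain, against 622 ± 13.1 CPM with CA-CRTC-1 alone, 497 ± 31.7 CPM with CA-AAK-2 alone and 456 ± 15.6 CPM in N2 (SD, n = 3 each). Sums of single libraries ran from 704 to 839 CPM in the double strain, from 610 to 636 CPM with CA-CRTC-1 alone, from 460 to 519 CPM with CA-AAK-2 alone and from 446 to 474 CPM in N2. Only the CA-AAK-2 and N2 sums overlapped. Over the same libraries the summed level of the 20 pan-neuronal markers was 695 to 738 CPM in the double strain and 705 to 775 CPM with CA-CRTC-1 alone. It was 673 to 716 CPM with CA-AAK-2 alone and 679 to 715 CPM in N2, and every pair of strains overlapped. The 14 neurotransmitter identity genes summed to 176 to 246 CPM in the double strain and 191 to 198 CPM with CA-CRTC-1 alone. Their sums were 168 to 177 CPM with CA-AAK-2 alone and 160 to 164 CPM in N2, where every library lay below those of the other strains.

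**Figure D1:**
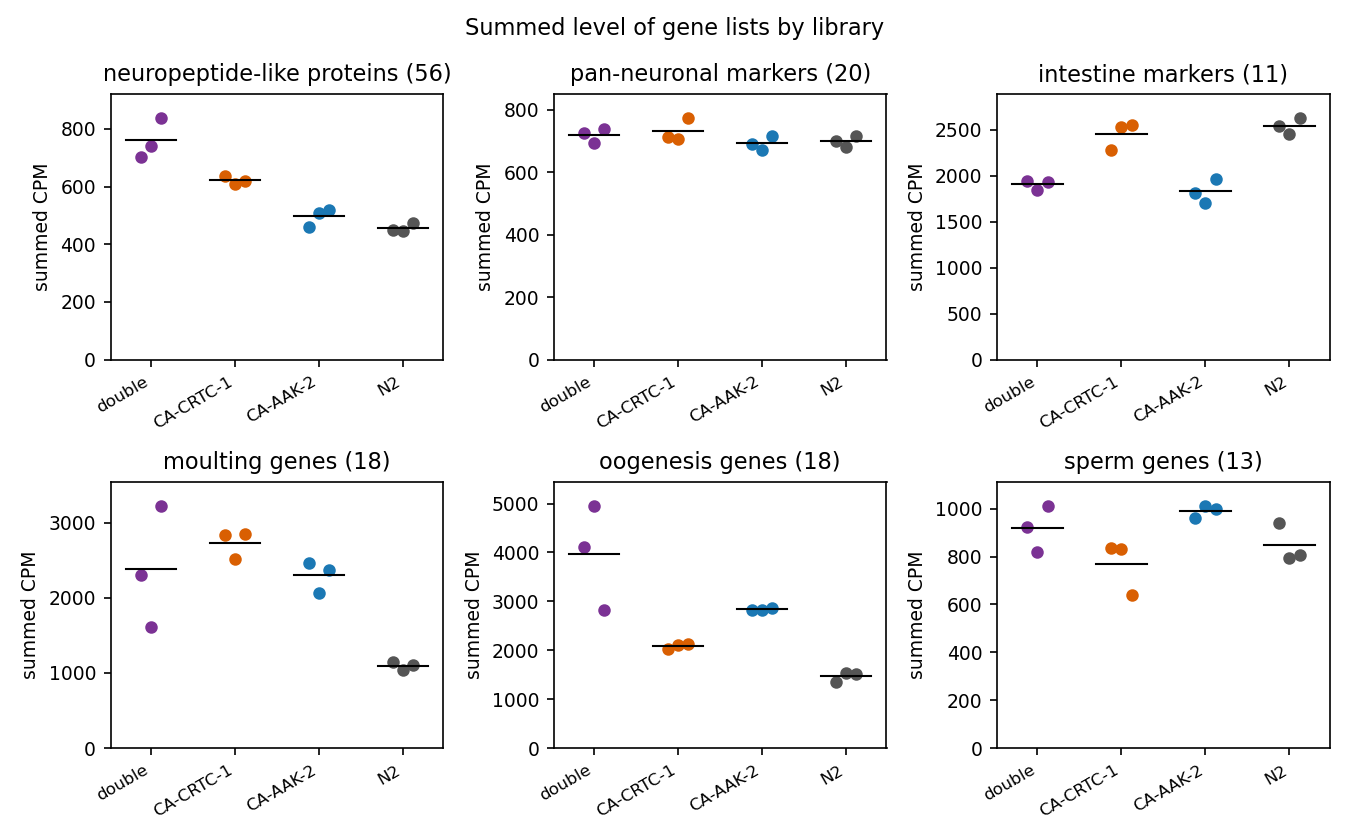
Summed CPM of 6 gene lists in each of the 3 libraries of a strain (points, with the mean as a line; number of genes in parentheses; double carries CA-AAK-2 and CA-CRTC-1). Sums of the neuropeptide-like protein genes were 704 to 839 CPM in the double strain against 446 to 474 CPM in N2, while those of the pan-neuronal markers were 695 to 738 CPM against 679 to 715 CPM.

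Tissue and stage markers also moved between strains. Moulting genes summed to 1616 to 3221 CPM in the double strain, 2520 to 2851 CPM with CA-CRTC-1 alone, 2072 to 2461 CPM with CA-AAK-2 alone and 1042 to 1143 CPM in N2. Oogenesis genes summed to 2820 to 4947 CPM in the double strain, 2030 to 2119 CPM with CA-CRTC-1 alone, 2817 to 2873 CPM with CA-AAK-2 alone and 1360 to 1541 CPM in N2. Intestine markers summed to 1842 to 1943 CPM in the double strain, 2280 to 2553 CPM with CA-CRTC-1 alone, 1706 to 1966 CPM with CA-AAK-2 alone and 2447 to 2629 CPM in N2. No marker of these lists was at 0 in any strain. All 3 transgenic strains were above N2 in the moulting and oogenesis sums, and the part of stage or tissue make-up in the neuropeptide differences was not tested. The double libraries were the most spread out in the moulting and oogenesis sums.

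In 46 of the 56 genes (82.1%) the highest strain mean was that of the double strain, against 38.7% of all genes at 0.5 CPM or more. The CA-CRTC-1 strain was highest for 8 genes, the CA-AAK-2 strain for nlp-35 and N2 for ntc-1. The lowest mean was in N2 for 34 genes, in the CA-AAK-2 strain for 21 and in the CA-CRTC-1 strain for nlp-69, and never in the double strain. For 20 genes all 3 double libraries lay above all 9 others, against a background of 12.3% of all genes.

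Differences were tested with limma on log2(CPM + 0.5) across all genes, in a fit of all 12 libraries. A gene was called when its Benjamini-Hochberg adjusted p was at most 0.01 and its change 1.5-fold or more. Only genes averaging 5 CPM or more over the libraries compared were tested, so a gene could pass through the strain where it was high. Differences below are log2 fold changes ± SE from that fit and understate the change of low genes.

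The joint effect of the transgenes was read from the double strain against N2. Among the 28 neuropeptide-like genes that could be tested, 20 rose and 0 fell, with a median difference of 0.76. Of these 20, nlp-7 and nlp-51 were under 5 CPM in every N2 library and passed the filter only through their double libraries. nlp-50, also among the 20, was under the filter in both single strains against N2. Among all 10597 genes tested 22.5% were called, 15.6% higher and 6.87% lower, with a median of 0.14. All 28 differences were positive, as were 6630 of all 10597. By edgeR on the recovered reads 20 genes were called too. In the same comparison 12 of 17 moulting genes rose and 2 fell (median 1.14), 16 of 18 oogenesis genes rose (median 1.58), and of 12 sperm genes 0 rose and 1 fell (median 0.12).

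nlp-15, a precursor of orcokinin-like peptides on chromosome I (12988231 to 12995475 in WBcel235), had 28.1, 28.5 and 36.2 CPM in the double strain, 20.1, 18.4 and 16.4 CPM with CA-CRTC-1 alone, 10.1, 11.8 and 9.90 CPM with CA-AAK-2 alone, and 11.2, 8.60 and 11.99 CPM in N2. The double libraries stood above all others, the CA-CRTC-1 libraries came next, and the CA-AAK-2 and N2 libraries overlapped. The rise in the double strain over N2 was 1.51 ± 0.13 (limma, adjusted p = 4.62e-07).

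nlp-4, on chromosome I (10517321 to 10518055), gave 21.97, 38.8 and 45.8 CPM in the double strain, 43.7, 14.97 and 12.9 CPM with CA-CRTC-1 alone, 14.0, 18.1 and 12.8 CPM with CA-AAK-2 alone, and 11.7, 11.4 and 11.6 CPM in N2. It rose by 1.52 ± 0.35 in the double strain over N2 (limma, adjusted p = 0.00184), with the largest SE of the 28 genes. 1 CA-CRTC-1 library was about as high as the double libraries and the other 2 lay near the CA-AAK-2 libraries, so that the CA-CRTC-1 difference from N2, 0.80 ± 0.35, was not called (limma, adjusted p = 0.108). Without that library, CA-CRTC-1 replicate 1, the difference was 0.26.

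**Figure D2:**
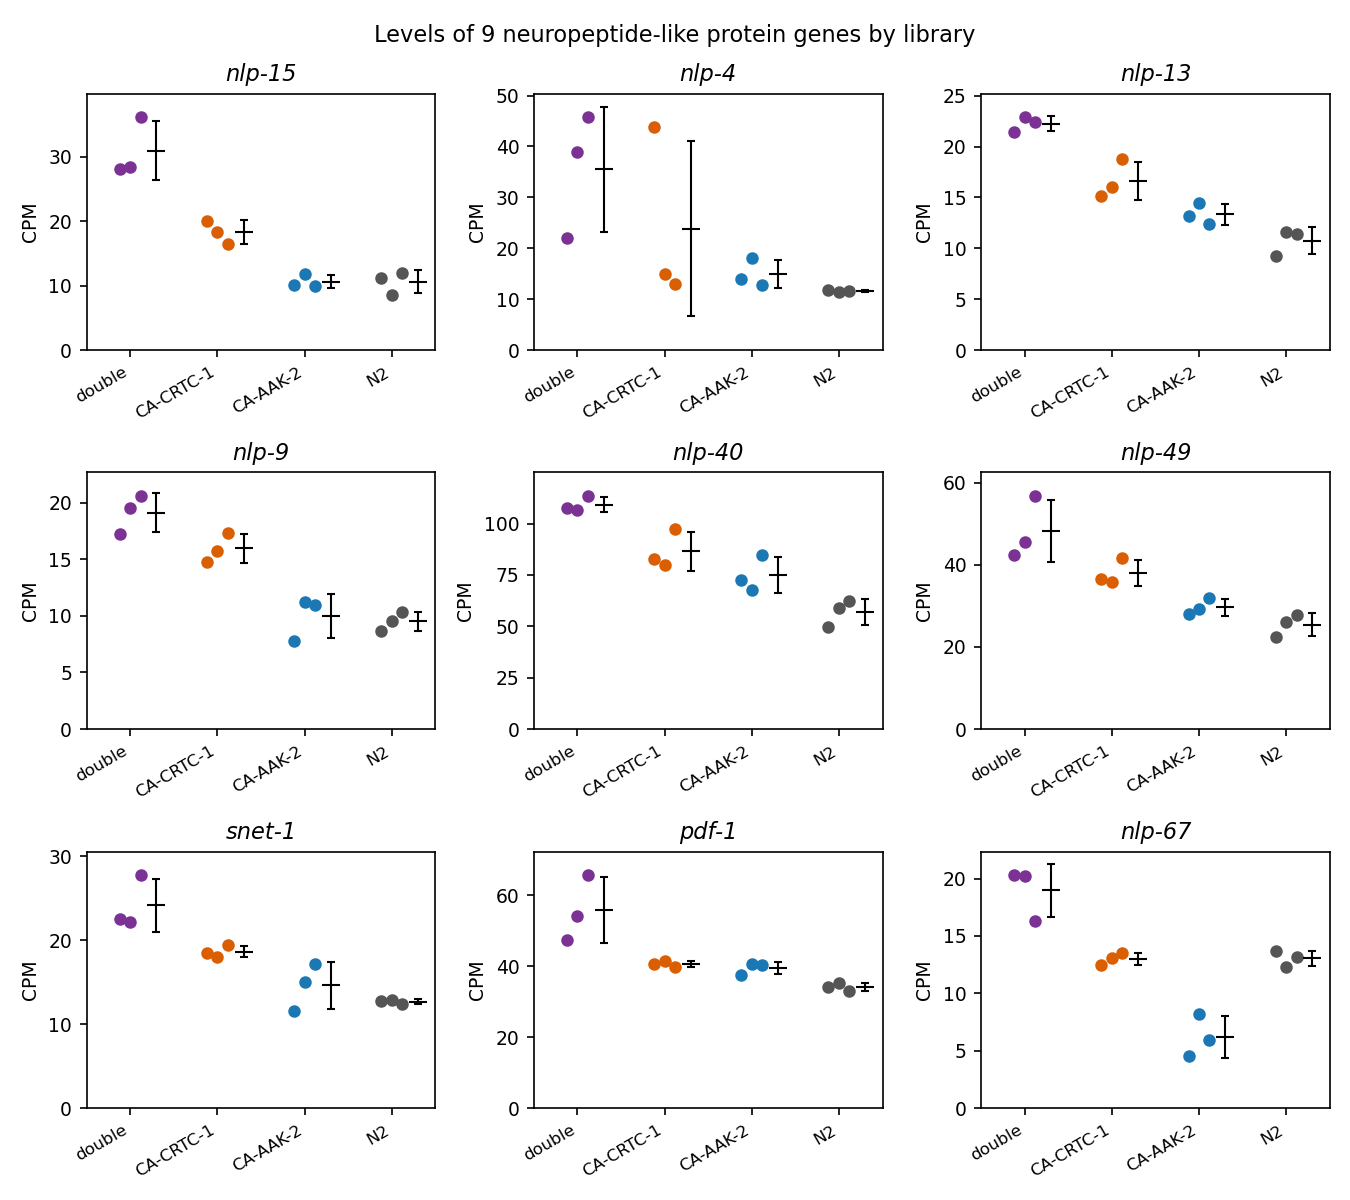
CPM of 9 neuropeptide-like protein genes in each library (coloured points, in replicate order) with the mean and SD of each strain (black; n = 3); double carries CA-AAK-2 and CA-CRTC-1. nlp-15 libraries reached 28.1 to 36.2 CPM in the double strain against 8.60 to 11.99 CPM in N2, and nlp-67 was lowest in the CA-AAK-2 strain.

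nlp-13 and nlp-9 lie near each other on chromosome V, 14184 bases apart. nlp-13 (4236418 to 4238056) held 21.5, 22.9 and 22.4 CPM in the double strain, 15.1, 16.03 and 18.7 CPM with CA-CRTC-1 alone, 13.2, 14.5 and 12.4 CPM with CA-AAK-2 alone, and 9.22, 11.6 and 11.4 CPM in N2. The 4 strains did not overlap for this gene, which rose by 1.02 ± 0.11 in the double strain over N2 (limma, adjusted p = 2.43e-06). For nlp-9 (4219642 to 4222233) the double libraries had 17.2, 19.6 and 20.6 CPM, the CA-CRTC-1 libraries 14.8, 15.8 and 17.3 CPM, the CA-AAK-2 libraries 7.75, 11.3 and 10.9 CPM, and the N2 libraries 8.65, 9.58 and 10.3 CPM. The double and CA-CRTC-1 libraries of nlp-9 overlapped and both stood above the other strains, and the rise over N2 was 0.97 ± 0.13 in the double strain (limma, adjusted p = 2.40e-05).

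nlp-40 encodes peptides released from the intestine that act on the receptor AEX-2 to drive the defecation motor program. It lies at 11495 to 16837 on chromosome I and measured 107.8, 106 and 113 CPM in the double strain, 82.6, 79.7 and 97.4 CPM with CA-CRTC-1 alone, 72.3, 67.5 and 84.6 CPM with CA-AAK-2 alone, and 49.8, 59.0 and 62.2 CPM in N2. The double libraries were the highest and the N2 libraries the lowest, without overlap with the single strains, which overlapped each other. The rise was 0.94 ± 0.10 in the double strain over N2 (limma, adjusted p = 2.90e-06). Of the 11 intestine markers 1 rose and 4 fell in that comparison, in which 15.6% of all genes rose and 6.87% fell. elt-2, an intestinal transcription factor, had a difference of 0.67 ± 0.08 and pho-1, an intestinal acid phosphatase, one of -1.16 ± 0.09.

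nlp-49, whose peptide acts on the receptor SEB-3 to promote locomotion, lies on the X chromosome (5904653 to 5905345) and had 42.5, 45.7 and 56.9 CPM in the double strain, 36.5, 35.8 and 41.7 CPM with CA-CRTC-1 alone, 27.999, 29.2 and 31.98 CPM with CA-AAK-2 alone, and 22.4, 26.004 and 27.912 CPM in N2. No pair of the 4 strains overlapped, with the narrowest gap between the CA-AAK-2 and N2 libraries. The rise was 0.91 ± 0.11 in the double strain over N2 (limma, adjusted p = 9.82e-06).

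snet-1, a peptide known from pheromone-dependent olfactory plasticity, lies on the X chromosome (3668086 to 3668942). Its level was 22.5, 22.1 and 27.8 CPM in the double strain, 18.5, 17.99 and 19.4 CPM with CA-CRTC-1 alone, 11.6, 14.96 and 17.2 CPM with CA-AAK-2 alone, and 12.8, 12.9 and 12.3 CPM in N2. The double and CA-CRTC-1 libraries stood above the other 6, of which the CA-AAK-2 and N2 libraries overlapped, and the rise over N2 was 0.90 ± 0.13 in the double strain (limma, adjusted p = 3.02e-05). pdf-1 encodes the pigment-dispersing factor peptides that act on PDFR-1 in locomotion and roaming; it lies on chromosome III (6909590 to 6912481) and had 47.5, 54.1 and 65.8 CPM in the double strain, 40.7, 41.4 and 39.8 CPM with CA-CRTC-1 alone, 37.4, 40.5 and 40.4 CPM with CA-AAK-2 alone, and 34.2, 35.3 and 32.9 CPM in N2. The double strain lay above all others and N2 below all others, and the rise was 0.69 ± 0.10 (limma, adjusted p = 2.96e-05). Its call was lost without double replicate 3, the highest library (difference 0.56). pdf-2, its sister gene and not a member by the rule, differed by 0.49 ± 0.11 and was not called.

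Others of the 20 were nlp-80, nlp-51, nlp-16, nlp-18 and nlp-7. nlp-80 had 11.3, 11.8 and 10.3 CPM in the double strain, 7.70, 7.74 and 9.61 CPM with CA-CRTC-1 alone, 7.23, 5.83 and 8.73 CPM with CA-AAK-2 alone, and 4.22, 6.10 and 6.40 CPM in N2. It rose by 0.96 ± 0.16 in the double strain over N2, where the double libraries were above all others. nlp-16 had 14.6, 14.1 and 17.5 CPM in the double strain, 13.7, 14.2 and 14.6 CPM with CA-CRTC-1 alone, 9.94, 11.7 and 12.2 CPM with CA-AAK-2 alone, and 8.10, 7.67 and 8.60 CPM in N2. Its double and CA-CRTC-1 libraries overlapped, and it rose by 0.88 ± 0.11 in the double strain over N2.

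nlp-18, known from arousal, held 20.53, 22.2 and 22.6 CPM in the double strain, 19.3, 17.3 and 16.1 CPM with CA-CRTC-1 alone, 13.1, 15.96 and 12.6 CPM with CA-AAK-2 alone, and 14.0, 11.9 and 10.8 CPM in N2. Its double libraries were above all others and its CA-AAK-2 and N2 libraries overlapped, and it rose by 0.81 ± 0.12 in the double strain over N2. nlp-7, known from the control of egg laying, held 6.94, 6.77 and 7.59 CPM in the double strain, 5.28, 5.34 and 6.35 CPM with CA-CRTC-1 alone, 3.17, 4.16 and 3.71 CPM with CA-AAK-2 alone, and 3.595, 4.05 and 4.03 CPM in N2. It rose by 0.79 ± 0.12 in the double strain over N2, and its CA-AAK-2 and N2 libraries overlapped. The remaining 7 called genes were nlp-21 (0.88), nlp-50 (0.80), nlp-11 (0.73), nlp-8 (0.70), nlp-1 (0.64), nlp-14 (0.64) and nlp-55 (0.62). nlp-8 peptides act in sleep, nlp-1 is released by the AWC olfactory neurons and acts on NPR-11, and nlp-14 is orcokinin-like. The call of nlp-1 was lost without N2 replicate 1 (0.57), that of nlp-55 without N2 replicate 1 (0.57), N2 replicate 2 (0.55) or double replicate 3 (0.55), and that of nlp-50 without N2 replicate 2 (0.65), N2 replicate 3 (0.81) or double replicate 3 (0.62). The exons of nlp-21 overlap those of subs-4 on the opposite strand by 46 bases, and the kit keeps no strand.

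The 8 tested genes that were not called had differences of 0.15 to 0.57. Among them were nlp-36 (0.18 ± 0.07), nlp-12 (0.15 ± 0.12), nlp-20 (0.49 ± 0.16), nlp-47 (0.57 ± 0.17), which encodes a gonadotropin-releasing-hormone-like peptide, and nlp-3 (0.16 ± 0.10), known from egg laying. nlp-36, the highest per kb (chromosome III, 9488731 to 9489186), had 76.8, 83.1 and 87.2 CPM in the double strain, 93.5, 95.8 and 83.3 CPM with CA-CRTC-1 alone, 63.8, 69.3 and 64.8 CPM with CA-AAK-2 alone, and 75.6, 70.1 and 71.3 CPM in N2. Its mean was highest in the CA-CRTC-1 strain, whose libraries overlapped the double libraries, and its exons overlap those of dars-1 on the opposite strand by 11 bases. nlp-20 had 19.2, 18.4 and 24.7 CPM in the double strain, 15.4, 19.1 and 18.2 CPM with CA-CRTC-1 alone, 12.6, 15.3 and 18.5 CPM with CA-AAK-2 alone, and 11.9, 14.3 and 17.8 CPM in N2. The N2 libraries of nlp-20 overlapped those of both single strains but not those of the double strain.

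**Figure D3:**
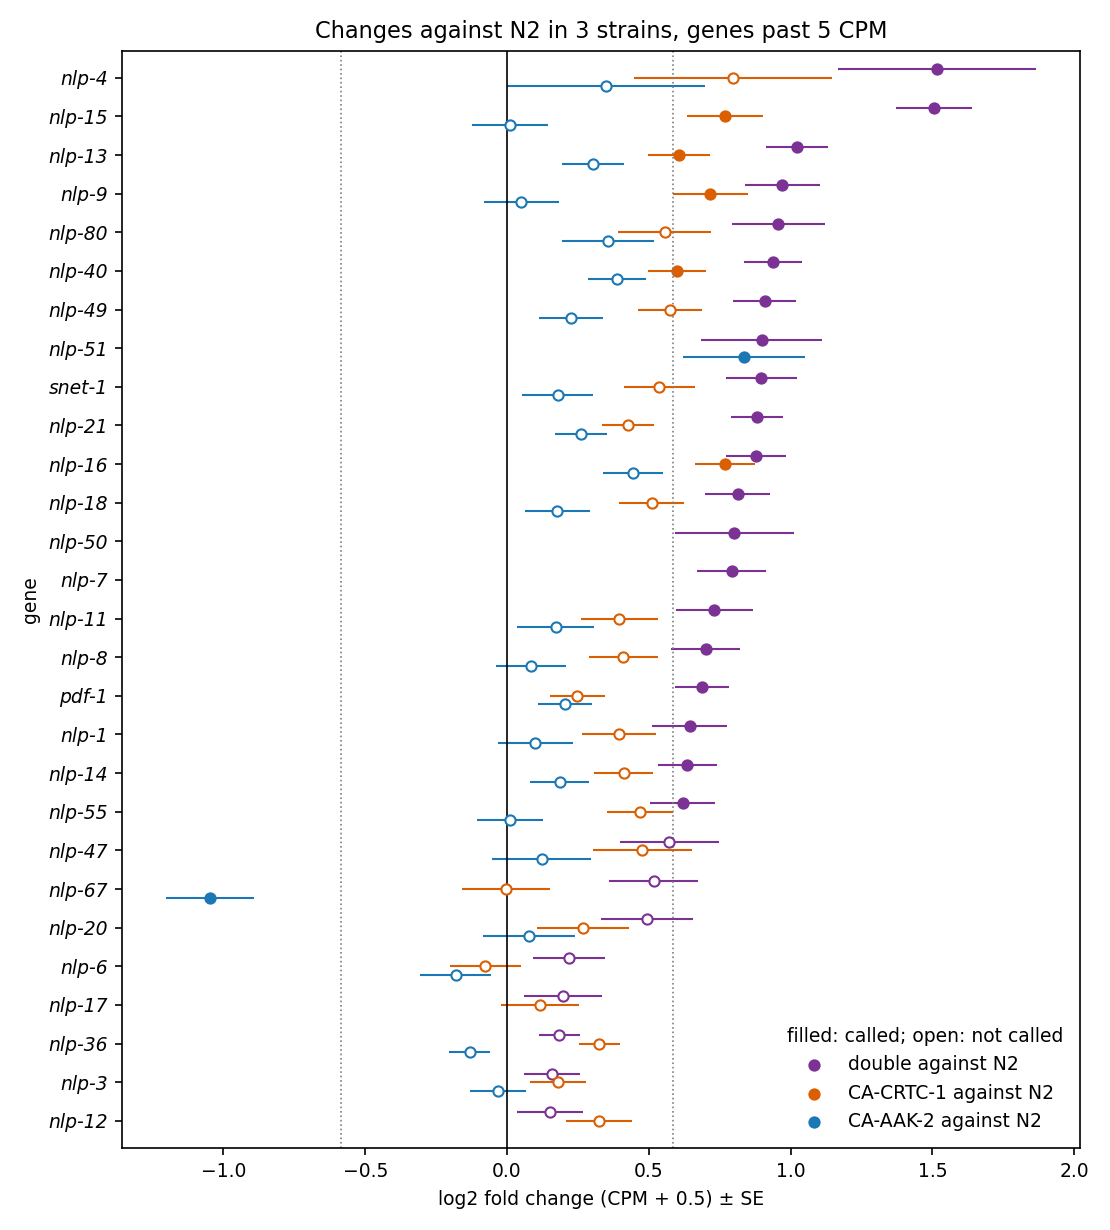
Log2 fold changes ± SE against N2 of the 28 genes tested in the double strain (top to bottom by that difference), for the double, CA-CRTC-1 and CA-AAK-2 strains; filled points were called, open points were not, a missing point was under 5 CPM, and dotted lines mark 1.5-fold. The 20 filled double points lie at 0.62 or above and all 28 are above 0, while the CA-AAK-2 points centre on a median of 0.17.

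Rescaling the libraries by median ratios lowered the median difference of all genes to -0.03, against 0.14 as deposited, and turned 1655 higher and 728 lower calls into 1071 and 1157. Under it 13 of the 28 genes rose and 0 fell. The 7 calls lost were nlp-50, nlp-11, nlp-8, pdf-1, nlp-1, nlp-14 and nlp-55, and nlp-3 and nlp-12 then stood at -0.00 and -0.01.

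The effect of CA-CRTC-1 without the CA-AAK-2 transgene was read against N2. There 5 of 25 neuropeptide-like genes rose and 0 fell; their median difference was 0.43. Of all 10512 genes tested 8.79% were called, 6.62% higher and 2.17% lower, with a median of 0.07. The 5 were nlp-16 (0.77 ± 0.11), nlp-15 (0.77 ± 0.13), nlp-9 (0.72 ± 0.13), nlp-13 (0.61 ± 0.11) and nlp-40 (0.60 ± 0.10), with limma adjusted p of 8.70e-05 to 0.00106. A further 15 had an unadjusted p under 0.05 without being called, among them nlp-49 (0.57 ± 0.11), snet-1 (0.54 ± 0.13) and nlp-18 (0.51 ± 0.12). Of all 10512 genes 4030 had one, called genes included. The 5 genes' values in the double strain, given above, share the N2 libraries with this comparison. Without CA-CRTC-1 replicate 3 the count was 3, as nlp-13 (0.52) and nlp-40 (0.51) were lost. Both were also lost without N2 replicate 1 (0.50 each). By median-ratio scaling the count was 3 as well, and the calls over all genes became 574 higher and 357 lower against 696 and 228 as deposited.

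The effect of CA-AAK-2 by itself was read against N2. There 1 of 24 genes rose and 1 fell, with a median difference of 0.17. The gene that rose, nlp-51, was under 5 CPM in every N2 library and passed the filter only through its CA-AAK-2 libraries. Among all 10371 genes tested 12.6% were called, 8.2% higher and 4.4% lower, with a median of 0.11. 8 of the 24 had an unadjusted p under 0.05, against 5649 of all 10371 genes, a larger share.

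nlp-67, on the X chromosome (16184369 to 16185722), was the gene that fell. It had 4.53, 8.19 and 5.94 CPM with CA-AAK-2 alone, against 13.7, 12.3 and 13.1 CPM in N2, a difference of -1.05 ± 0.16 (limma, adjusted p = 1.31e-04). The libraries did not overlap. nlp-51, on chromosome II (11319223 to 11319691), rose by 0.83 ± 0.21 (limma, adjusted p = 0.00559), with 6.11, 6.31 and 11.3 CPM with CA-AAK-2 alone, against 4.11, 3.34 and 4.80 CPM in N2. The highest nlp-51 value came from CA-AAK-2 replicate 3, without which the gene fell under 5 CPM and was not tested, and its call was lost without N2 replicate 1 (0.85) or N2 replicate 2 (0.71). Levels of nlp-51 in the double strain were 7.41, 6.85 and 9.92 CPM, a rise of 0.90 ± 0.21 over N2, whose call was lost without N2 replicate 2 (0.78).

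CA-CRTC-1 in the presence of the CA-AAK-2 transgene was read from the double strain against CA-AAK-2. Here 11 of 28 genes rose and 0 fell, with a median difference of 0.58. nlp-7, among the 11, was under 5 CPM in every CA-AAK-2 library and passed the filter only through its double libraries. nlp-12 and nlp-17, tested here and not called, were under the filter in the CA-AAK-2 strain against N2. Of all 10610 genes tested 11.3% were called, 7.66% higher and 3.63% lower, with a median of 0.02. nlp-67 rose most, by 1.56 ± 0.16 (limma, adjusted p = 2.76e-06), with 20.3, 20.2 and 16.3 CPM in the double strain, against the 4.53 to 8.19 CPM of the CA-AAK-2 libraries. nlp-15 rose by 1.49 ± 0.13, nlp-9 by 0.92 ± 0.13 and nlp-7 by 0.87 ± 0.12. The other rises were nlp-13 (0.72), snet-1 (0.72), nlp-49 (0.68), nlp-18 (0.64), nlp-21 (0.62), nlp-8 (0.62) and nlp-55 (0.61).

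Without double replicate 3 this count was 6, with nlp-49 (0.56), nlp-21 (0.57), nlp-8 (0.50) and nlp-55 (0.54) no longer called and nlp-7 under the level tested. Without CA-AAK-2 replicate 1 the calls of snet-1 (0.57), nlp-8 (0.51) and nlp-21 (0.56) were lost, and without CA-AAK-2 replicate 3 that of nlp-18 (0.57). Double replicate 3 had the highest summed level of neuropeptide-like genes (839 CPM) and of moulting genes (3221 CPM) and the lowest of oogenesis genes (2820 CPM) of the 3 double libraries, and the part of these in the count was not tested. With replicate number as a block, nlp-80 was added and 12 genes rose. Median-ratio scaling left 8 calls, without nlp-8 (0.57), nlp-55 (0.56) and nlp-21 (0.57).

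A single gene, nlp-15, was called between the double and CA-CRTC-1 strains, among 29 tested (0.74 ± 0.13; limma, adjusted p = 8.16e-04). pdf-1 differed by 0.44 ± 0.10 there without being called. The median of the 29 was 0.30, against 0.07 for all genes tested. Positive differences numbered 26 of the 29, and 6418 of all 10730. An unadjusted p under 0.05 was reached by 17, as by 5228 of all 10730 genes. Over all 10730 genes tested 8.84% were called, 4.68% higher and 4.17% lower, which became 382 higher and 579 lower genes under median-ratio scaling, against 502 and 447 as deposited. nlp-4 was called there without CA-CRTC-1 replicate 1 (1.26) and nlp-67 without double replicate 3 (0.62).

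Between the single strains, 4 of 26 genes were lower in CA-AAK-2 than in CA-CRTC-1 and 0 higher, with a median of -0.33. Of all 10535 genes tested 7.07% were called, 1.6% higher and 5.47% lower, with a median of 0.05. The 4 were nlp-67 (-1.04 ± 0.16), nlp-15 (-0.76 ± 0.13), nlp-9 (-0.67 ± 0.13) and nlp-12 (-0.66 ± 0.12), with limma adjusted p of 2.63e-04 to 0.00209. nlp-67 had 12.4, 13.05 and 13.5 CPM with CA-CRTC-1 alone, so that its CA-AAK-2 libraries lay below those of the other 3 strains without overlap.

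nlp-12, the cholecystokinin-like peptide of the DVA neuron that acts on CKR-1 and CKR-2, lies on chromosome I (1843384 to 1843959). It had 6.11, 5.51 and 6.69 CPM in the double strain, 7.11, 6.81 and 6.85 CPM with CA-CRTC-1 alone, 4.08, 4.85 and 3.76 CPM with CA-AAK-2 alone, and 5.85, 5.26 and 5.21 CPM in N2. The CA-CRTC-1 libraries were the highest and the CA-AAK-2 libraries the lowest, with the double and N2 libraries overlapping between them. Every CA-AAK-2 library of nlp-12 was under 5 CPM, so between the single strains it passed the filter only through its CA-CRTC-1 libraries. Its call between the single strains was lost without CA-AAK-2 replicate 3 (-0.58), and that of nlp-9 without CA-AAK-2 replicate 1 (-0.50) or CA-CRTC-1 replicate 3 (-0.61).

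The CA-CRTC-1 difference can be set side by side with CA-AAK-2 (double against CA-AAK-2) and without it (CA-CRTC-1 against N2), since these pairs share no library. In 23 of the 25 genes tested in both, both differences were positive, and in 21 the difference with CA-AAK-2 was the larger. Over all genes tested, 5564 of 10610 differences were positive with CA-AAK-2 and 6671 of 10512 without it. The medians of the 25 were 0.56 with CA-AAK-2 and 0.43 without it. The difference between them, the interaction, was tested for 28 genes and called for 1, nlp-67, at 1.57 ± 0.22 (limma, adjusted p = 2.03e-04). Over all 10579 genes 8.72% were called in the interaction, 3.9% higher and 4.82% lower, with a median of -0.08, beside a median of 0.15 for the 28 genes. The interaction was positive in 23 of the 28 genes, against 4176 of all 10579. 5 of the 28 had an unadjusted p under 0.05, as did 3664 of all 10579 genes. nlp-15, at 0.73 ± 0.19, missed the threshold (limma, adjusted p = 0.0150) and passed it by median-ratio scaling and without N2 replicate 2. Mean crtc-1 RNA was 362 CPM in the double strain and 189 CPM with CA-CRTC-1 alone. The presence of CA-AAK-2 and this difference in crtc-1 RNA cannot be told apart in the interaction.

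**Figure D4:**
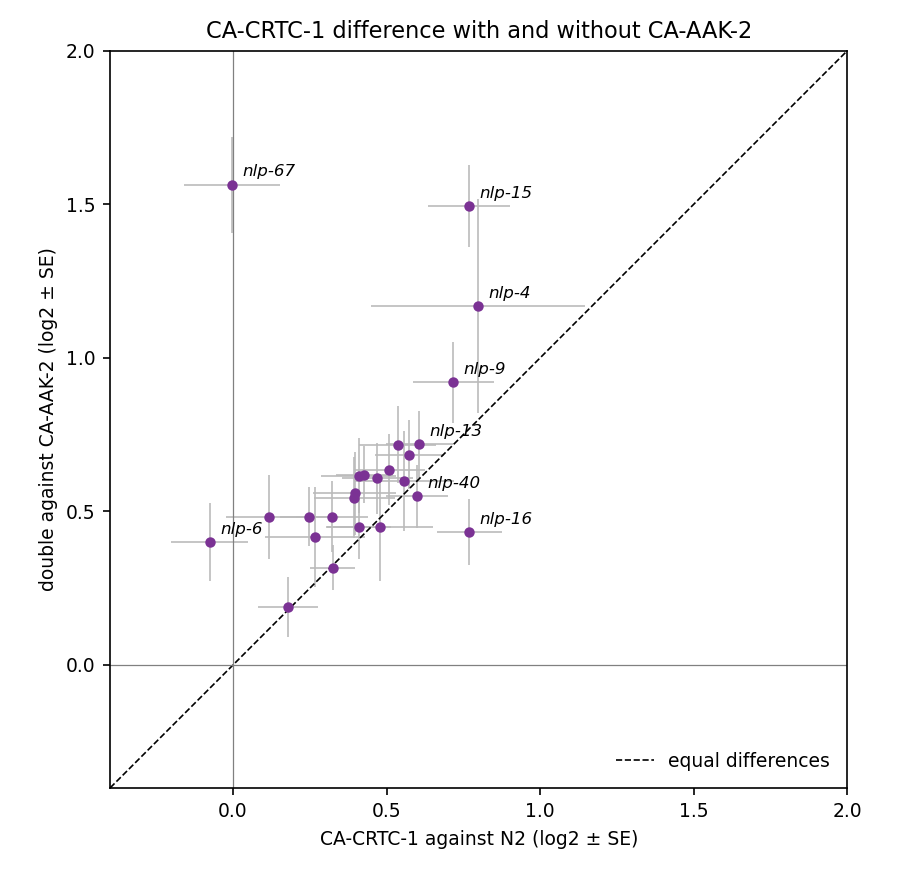
Log2 difference ± SE of 25 neuropeptide-like protein genes between the double and CA-AAK-2 strains (vertical axis) and between CA-CRTC-1 and N2 (horizontal axis); the dashed line marks equal differences. 21 of the 25 points lie above the line, and nlp-67 lies farthest from it at 1.56 against -0.00.

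The 28 genes under 5 CPM are given as values. They held 431 to 2581 reads each over all libraries. In 16 of them all 3 double libraries lay above all 3 N2 libraries and in 0 below. Over all 56 genes these counts were 41 above and 0 below, against 43.8% and 19% of all genes. For CA-CRTC-1 over N2 the counts over all 56 were 32 above and 2 below (all genes 34.8% and 13.5%), and for CA-AAK-2 over N2 they were 13 above and 6 below (all genes 34.6% and 17.5%). Between the double and CA-AAK-2 strains they were 41 above and 0 below (all genes 24.7% and 16.7%), and between CA-AAK-2 and CA-CRTC-1 2 above and 25 below (all genes 21.9% and 22.1%). For the double over the CA-CRTC-1 strain they were 24 above and 1 below (all genes 28.8% and 17%).

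Among the low genes nlp-62 had 5.00, 5.73 and 3.58 CPM in the double strain, 1.81, 2.51 and 2.50 CPM with CA-CRTC-1 alone, 1.35, 1.87 and 1.06 CPM with CA-AAK-2 alone, and 1.17, 1.75 and 2.46 CPM in N2. nlp-82 had 3.47, 3.17 and 3.14 CPM in the double strain, 1.86, 1.65 and 1.42 CPM with CA-CRTC-1 alone, 1.45, 1.39 and 1.42 CPM with CA-AAK-2 alone, and 1.23, 1.18 and 1.37 CPM in N2. Both stood above the other 9 libraries in every double library, as did nlp-63, nlp-69 and nlp-70. These 5 genes were picked for that pattern after their values were seen. With the filter lowered to 1 CPM, limma called 27 genes higher in the double strain than in N2, the added 7 being nlp-59, nlp-61, nlp-62, nlp-68, nlp-69, nlp-70 and nlp-82. The 15.6% of all genes called higher belongs to the 5 CPM filter, and no such share is given for 1 CPM.

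ntc-1, the nematocin gene, known from mating and gustatory learning, was among the low genes (X chromosome, 4866098 to 4866690). It had 2.096, 2.44 and 2.39 CPM in the double strain, 2.12, 2.09 and 2.13 CPM with CA-CRTC-1 alone, 1.75, 2.14 and 2.06 CPM with CA-AAK-2 alone, and 2.54, 2.18 and 2.27 CPM in N2. Its double and N2 libraries overlapped. The exons of ntc-1 overlap those of tsp-14 by 10 bases. In all, the exons of 10 of the 56 genes overlap another annotated gene.

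The peptide processing machinery was examined as a list of 20 genes of peptide cleavage, amidation and dense-core vesicles. In the double strain over N2, 7 of 20 rose and 0 fell, with a median of 0.47, against 15.6% and 6.87% of all genes. aex-5, a proprotein convertase of the intestine and muscle, rose by 1.03 ± 0.10, pghm-1, an amidation enzyme, by 0.83 ± 0.09, ida-1, a dense-core vesicle membrane protein, by 0.78 ± 0.08, and egl-3, the neuronal proprotein convertase, by 0.70 ± 0.08. The remaining 3 were sbt-1, the 7B2-like chaperone of the convertase, egl-21, the carboxypeptidase that trims cut peptides, and cpd-1. In the CA-CRTC-1 strain over N2, 3 of 20 rose and 0 fell (cpd-1 by 0.91 ± 0.13, aex-5 by 0.80 ± 0.10, pamn-1 by 0.67 ± 0.10), where 6.62% of all genes rose. In the CA-AAK-2 strain over N2 0 of 19 were called, against 12.6% of all genes, with 8 at an unadjusted p under 0.05. Against CA-AAK-2 the double strain had 4 rises and 0 falls of 19 tested, the rises being aex-5, pghm-1, ida-1 and egl-3, where 7.66% of all genes rose. In the interaction 0 of the 20 were called higher and 3 lower, against 3.9% and 4.82% of all genes: cpd-1 (-0.81 ± 0.18), the proprotein convertase gene kpc-1 (-0.71 ± 0.11) and pamn-1 (-0.61 ± 0.14) had a lower difference between the double and CA-AAK-2 strains than between CA-CRTC-1 and N2 (limma, adjusted p of 3.19e-04 to 0.00717). For kpc-1 these differences were -0.29 and 0.42, neither of them called.

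The flp genes, the other large neuropeptide class, had 11 rises and 0 falls among 25 tested in the double strain over N2, with a median of 0.57, where 15.6% of all genes rose and 6.87% fell. The lowest adjusted p values among the rises were those of flp-2 (1.01 ± 0.13), flp-5 (0.97 ± 0.13), flp-13 (0.73 ± 0.10) and flp-1 (0.63 ± 0.09). In the CA-CRTC-1 strain over N2, 1 of 22 rose (flp-16, 0.60 ± 0.14), a share near the 6.62% of all genes, with a median of 0.29. In the CA-AAK-2 strain over N2, 0 of 21 were called, against 12.6% of all genes, with a median of 0.08 and 3 at an unadjusted p under 0.05. Of the insulin-like genes 4 were tested in the double strain over N2 and daf-28 rose (0.76 ± 0.14). The epidermal antimicrobial nlp genes left out of the rule had 5 rises, up to 3.24 ± 0.17 for nlp-27, and 1 fall, nlp-25 at -1.28 ± 0.20, among 9 tested.

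Genes that act after release, and markers of neurons, were set against the same background, with 22.5% of all genes called in the double strain over N2. Of the 47 receptor genes, 5 could be tested in the double strain over N2 and 0 were called, with 2 at an unadjusted p under 0.05, and 5 genes are too few to read a share from. Of 19 neprilysin-like peptidase genes tested, a family of extracellular enzymes some of which degrade neuropeptides, 2 fell (nep-22 by 0.80 on the log2 scale and nep-21 by 0.62) and 0 rose. That count is near the 6.87% of all genes that fell. In the CA-AAK-2 strain over N2, 2 of 19 neprilysin-like genes fell too, where 4.4% of all genes did. Of 17 pan-neuronal markers 0 were called in the double strain over N2, with a median of 0.05 and 10 at an unadjusted p under 0.05, as had 6790 of all 10597 genes. Against CA-AAK-2 the double strain had 2 rises of 17 pan-neuronal markers, aex-3 (0.60 ± 0.10) and ric-19 (0.63 ± 0.15), a count near the 7.66% of all genes that rose there.

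Among 7 neurotransmitter identity genes tested in the double strain over N2, tdc-1, which makes tyramine, rose by 1.28 ± 0.13 and cat-4, of biogenic amine cofactor synthesis, by 0.89 ± 0.13, while bas-1, which makes dopamine and serotonin from their precursors, had a difference of -0.83 ± 0.11 and fell. tdc-1 also rose in the CA-AAK-2 strain over N2, by 0.90 ± 0.13.

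**Figure D5:**
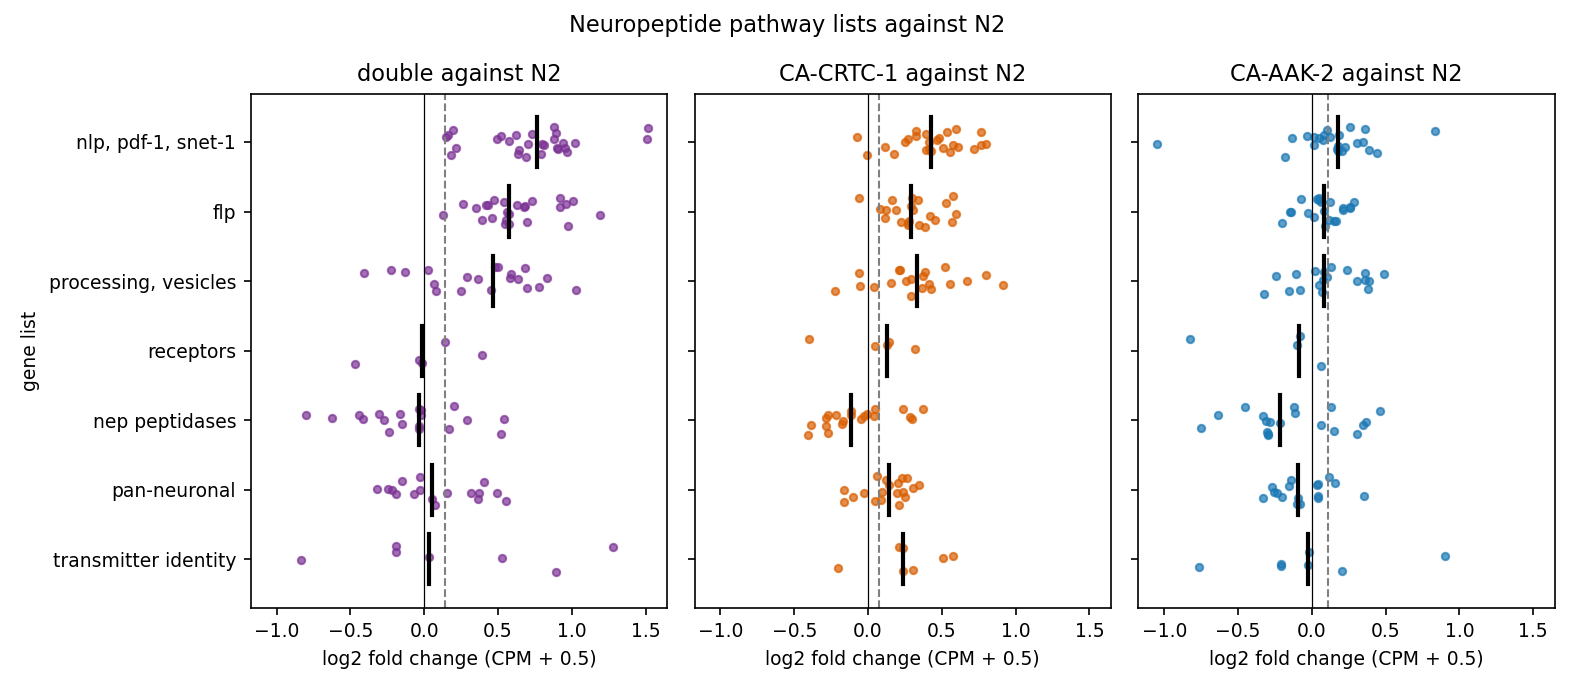
Log2 fold changes against N2 of the tested genes of 7 lists (points, spread vertically at random) in the double, CA-CRTC-1 and CA-AAK-2 strains; black bars are list medians and the dashed line is the median of all genes tested. In the double strain the medians were 0.76 for the neuropeptide-like genes, 0.57 for the flp genes, 0.47 for the processing genes and 0.05 for the pan-neuronal markers.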

How the data were processed

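The authors deposited CPM values, scaled in edgeR for library depth and composition, per the series text. Per the submitters' processing notes, reads passed through CASAVA 1.8.2, cutadapt, TopHat2 2.0.8 and HTSeq. 2 genome versions (ce6, WS238) appear in that text; coordinates here are from WBcel235. All values were whole multiples of 1 read within 0.1 reads, which gave the recovered reads.

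Differences were tested with limma 3.58.1 (R 4.3.3, trended prior, pseudocount 0.5), fitted on genes at 1 CPM or more and adjusted over genes at 5 CPM or more over the libraries compared. Alternatives were pseudocounts of 0.1 and 2, filters of 1 CPM and none, median-ratio scaling, only the groups compared, a replicate block, an adjusted p of 0.05 with no fold threshold, edgeR 4.0.16 on recovered reads, and leaving out each library. Members and lists were chosen with earlier results of these data known. Per-library values are given for the leading called genes of each comparison (up to 8), the 5 highest per kb and 6 genes of known function. They are also given for nlp-62 and nlp-82, which were picked after their values were seen. Deviations of same-numbered CA-AAK-2 and double libraries correlated at 0.252, 0.313 and 0.275; no other pair of strains met the pairing rule (each above 0.1). The tests were checked on simulated data.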

Additional observations from a re-analysis of the deposited data

Results flagged for a closer look

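The CA-CRTC-1 difference of nlp-67 was not the same with and without CA-AAK-2: the difference between them was 1.57 on the log2 scale (limma interaction, 1.57 ± 0.22, adjusted p = 2.03e-04). The gene had 20.3, 20.2 and 16.3 CPM in the double strain against 4.53, 8.19 and 5.94 CPM with CA-AAK-2 alone, and 12.4, 13.05 and 13.5 CPM with CA-CRTC-1 alone against 13.7, 12.3 and 13.1 CPM in N2. It was called under all 19 alternatives that keep the call rule, at 1.37 to 1.77. The presence of CA-AAK-2 and the higher crtc-1 RNA of the double strain (mean 362 CPM, against 189 CPM with CA-CRTC-1 alone) cannot be told apart here.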

How the results depend on the processing

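Over the alternatives tried no called gene changed direction. Leaving out each library in turn gave 17 to 21 called genes for the double strain against N2 (20 with all libraries), 3 to 7 for CA-CRTC-1 against N2 (5), 1 to 2 for CA-AAK-2 against N2 (2), 6 to 13 for double against CA-AAK-2 (11), 1 to 2 for double against CA-CRTC-1 (1), 3 to 4 for CA-AAK-2 against CA-CRTC-1 (4) and 1 to 2 for the interaction (1).

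Median-ratio scaling gave 13 for double against N2, 3 for CA-CRTC-1 against N2, 2 for the interaction and 8 for double against CA-AAK-2. A pseudocount of 2 also gave 8 there, losing the same 3 genes as that scaling (nlp-8, nlp-55 and nlp-21); it gave 18 for double against N2 (nlp-1 and nlp-55 lost), 4 for CA-CRTC-1 against N2 (nlp-13 lost) and 3 for CA-AAK-2 against CA-CRTC-1 (nlp-12 lost). Fitting only the groups compared ended the call of nlp-8 and added nlp-4 for double against CA-AAK-2. With an adjusted p of 0.05 and no fold threshold the counts were 16 for CA-CRTC-1 against N2, 6 for CA-AAK-2 against N2, 24 for double against CA-AAK-2, 11 for double against CA-CRTC-1, 13 for CA-AAK-2 against CA-CRTC-1 and 2 for the interaction. A filter of 1 CPM gave 18 for double against CA-AAK-2, 4 for double against CA-CRTC-1 and 7 for CA-AAK-2 against CA-CRTC-1, and no filter gave 19, 4 and 8, since more genes were tested. Shares of all genes are not given for the looser rule or for these filters, so those counts have no background to be read against. The replicate block gave 2 for double against CA-CRTC-1, where it added nlp-51, although the numbers of these strains did not meet the pairing rule; it gave 12 for double against CA-AAK-2 and moved no other count. The cause of the other changes was not tested. Depth limits the 28 genes under 5 CPM, and 3 libraries a strain limit every test.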
